A study of Mus musculus with 10 samples.

Results

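Eph receptors are cell-surface tyrosine kinases, and ephrins are the ligands that neighbouring cells present to them. The genes described here are 6 members of that system, the ligand genes Efnb2, Efnb1 and Efna1 and the receptor genes Ephb3, Ephb4 and Epha2. They were chosen by symbol: each probe set whose platform annotation was one of these symbols was taken, and where a gene had several, the one of highest mean over the 10 arrays was to be used. Each of the 6 genes had 1 probe set, so 6 of the 22180 genes of the table are described. The platform holds named probe sets for 21 of the 22 Eph receptors and ephrins looked for, 13 receptors and 8 ephrins. Ephb2, the other B-type receptor known from crypts, was not named by the annotation and is not analysed here.

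The 4 Flattop arrays hold cells of intestinal crypts that the labels describe by their expression of Flattop, the planar polarity protein encoded by Cfap126. These cells came from mice of the genotype FltpT2AiCre crossed with Gt(ROSA)26mTmG, on a strain mixed from C57BL/6J, CD1 and 129/SvJ. In such mice Cre switches a membrane colour reporter permanently, so descendants of a labelled cell keep the colour, whether or not they still express Flattop. The 6 Lgr5-high arrays hold intestinal stem cells with high Lgr5 and GFP, from C57BL/6J mice of the genotype Lgr5-EGFP-IRES-creERT2. All mice were 3 to 6 months old and no treatment is named for either group. Genotype, strain and cell population coincide with the groups and cannot be told apart. The labels do not say whether arrays came from separate animals, so the p-values reflect how these samples vary, and part of that variation may be technical.

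Ephrins of the A type are held in the membrane by a lipid anchor, and those of the B type cross the membrane and carry a cytoplasmic tail, so that ephrin-B cells can signal too when a receptor binds. In the intestine, EphB receptors are known to be highest at the crypt base, where Wnt signalling is strong, and ephrin-B1 and ephrin-B2 in the cells further up, and the repulsion between them keeps cell types in place along the crypt. EphB3 is known for holding Paneth cells at the crypt base. EphB4 binds ephrin-B2 above all and is best known with it from veins and arteries, and EphA2 is a receptor for ephrin-A1 in many epithelia.

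Transcripts of Efnb2, the ephrin-B2 gene, rose in the Flattop arrays, and none of the receptors passed the test. Efnb2 was 4.22-fold higher (SE 0.35 on the log2 scale, limma adjusted p = 0.0198, n = 4 and 6) and was the 1 member of 6 past an adjusted p of 0.05. In sorted populations measured in bulk, more cells of a type and more RNA per cell cannot be told apart. Of all 22180 genes tested 0.915% passed, 0.902% as higher and 0.0135% as lower. Efnb1 differed by 0.68, Efna1 by 0.44, Ephb3 by -0.09, Epha2 by -0.28 and Ephb4 by -1.03 on the log2 scale, none of them past the threshold. The median difference of the 6 genes was 0.18 and that of all genes was -0.06, and the former was near 0 within title numbers 38 to 46 (-0.004). At an unadjusted p under 0.05 there were 4 members, Efnb2 and Efnb1 higher and Ephb4 and Epha2 lower, where 9.78% of all genes lay under it, 5.98% as higher and 3.8% as lower. The groups did not overlap in 2 members, against 2.98% of all genes, namely Efnb2 as higher (2.01% of all genes) and Epha2 as lower (0.974%).

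**Figure D1:**
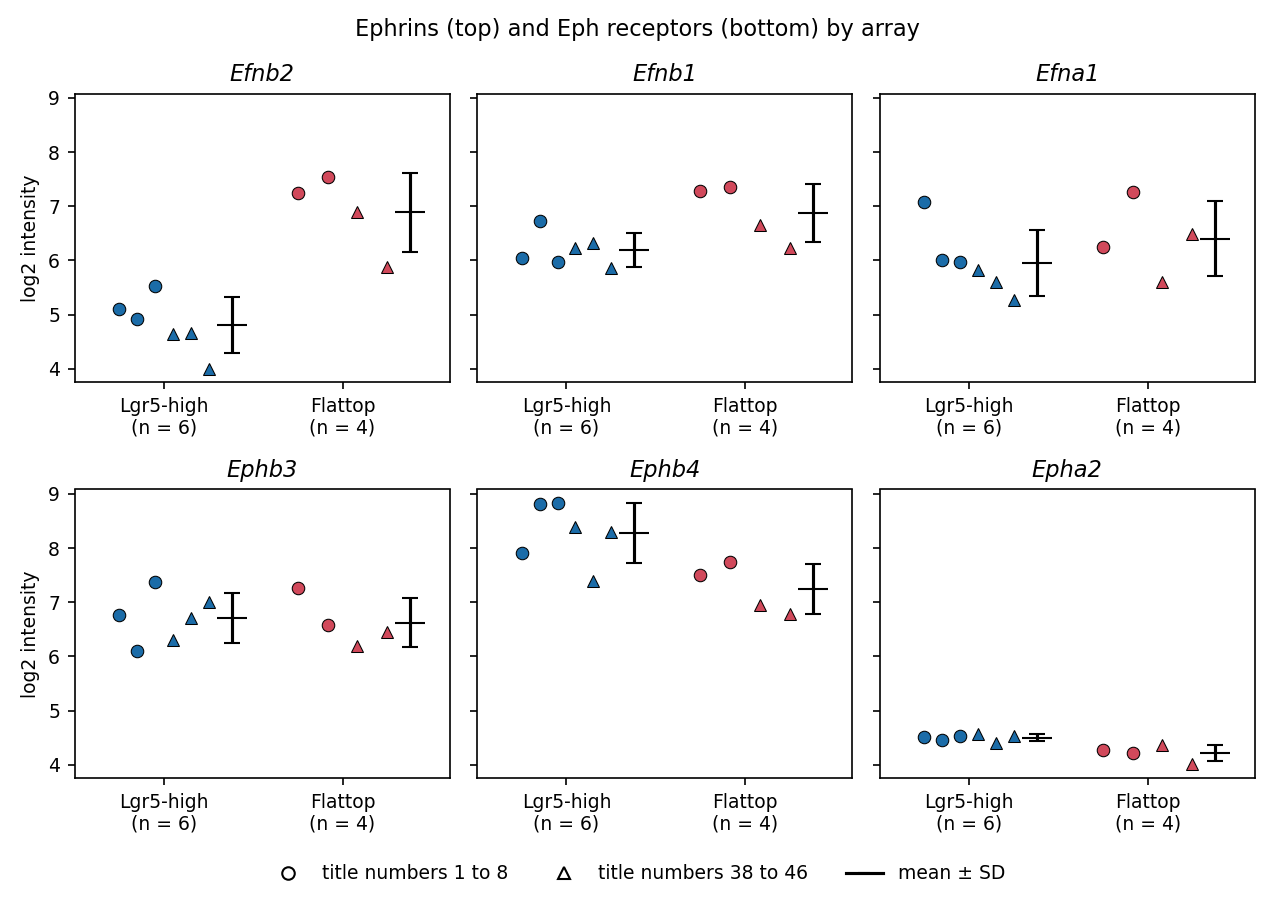
Log2 intensity of each of the 6 genes (vertical axis) in every array of both groups, with circles for arrays of title numbers 1 to 8, triangles for 38 to 46, and mean ± SD beside each group. The 4 Flattop arrays lie above all 6 Lgr5-high arrays for Efnb2 and below them for Epha2, whose values are close together, and the groups overlap for the other genes.

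Array medians over all probe sets lay between 4.56 and 4.77 and lower quartiles between 3.59 and 3.84, and no detection calls accompany the values. Stem cell list means over 14 measured genes lay well above the array medians in both groups, at 8.30 to 8.96 in Lgr5-high and 7.43 to 8.53 in Flattop arrays. Not every marker did so, as Ascl2 averaged 5.39 in Lgr5-high and 5.14 in Flattop arrays. Lgr5 itself, the receptor that marks these stem cells, averaged 9.47 ± 0.33 (SD, n = 6) in the Lgr5-high arrays against 8.37 ± 1.42 (SD, n = 4) in Flattop (limma adjusted p = 0.533). The arrays carry title numbers from 1 to 8 (3 Lgr5-high, 2 Flattop) or from 38 to 46 (3 and 2), and the labels do not say whether these mark batches. Of the lymphocyte markers, 10 of 11 rose in the Flattop arrays, with list means of 8.31 to 10.54 against 4.41 to 4.85. The part of these and the other cell type markers in the results for the Eph and ephrin genes was not tested beyond the values given beside them.

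For the genes with the 3 largest differences, the 250 bases before the annotated start are shown 5′ to 3′ on the strand of the gene, from RefSeq's GRCm38.p6, with each CCAAT box, a common promoter element, in capitals on either strand (CCAAT or ATTGG).
Efnb2, chr8:8661243-8661492, minus strand: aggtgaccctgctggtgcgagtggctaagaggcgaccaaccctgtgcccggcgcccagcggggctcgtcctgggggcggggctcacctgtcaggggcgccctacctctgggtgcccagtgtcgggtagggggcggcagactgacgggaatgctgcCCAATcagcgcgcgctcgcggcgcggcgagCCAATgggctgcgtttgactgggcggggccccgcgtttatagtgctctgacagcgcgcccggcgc
Efnb1, chrX:99135811-99136060, plus strand: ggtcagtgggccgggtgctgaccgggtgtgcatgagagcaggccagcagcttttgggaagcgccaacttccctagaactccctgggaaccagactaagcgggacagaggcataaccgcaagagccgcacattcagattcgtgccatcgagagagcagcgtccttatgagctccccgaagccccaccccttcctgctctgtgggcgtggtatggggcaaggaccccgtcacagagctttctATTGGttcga
Ephb4, chr5:137349859-137350108, plus strand: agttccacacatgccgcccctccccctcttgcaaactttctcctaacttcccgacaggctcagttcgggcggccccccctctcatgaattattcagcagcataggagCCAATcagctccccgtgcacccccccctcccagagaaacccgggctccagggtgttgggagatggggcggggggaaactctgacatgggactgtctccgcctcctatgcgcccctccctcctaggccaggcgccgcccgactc
The window of Efnb2 held 2 CCAAT boxes and those of Efnb1 and Ephb4 held 1 each, against at least 1 in 33.8% of 32851 promoter windows of this length. Efnb2 was the richest of the 6 genes in G and C, at 72% of bases with 27 CG pairs, where Efnb1 had 60% and 13 and Ephb4 64% and 12. The GC box GGGCGG, searched on both strands, occurred 3 times before Efnb2, 4 times before Ephb4 and 0 times before Efnb1 (32.7% of all windows hold it). TGGGAA, the letters bound by the Notch effector RBPJ, occurred 2 times before Efnb1 and 0 times before Efnb2 and Ephb4 (21.6% of all windows). The letters ATCAAAG and AACAAAG of the Wnt effectors TCF and LEF were in 0 of the 7 windows of the 6 genes, where 8.06% of all windows hold one of them on either strand. These counts describe letters in a short window and not binding.

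Efnb2 encodes ephrin-B2, the B-type ligand bound by EphB4 and also by EphB3, and lies on chromosome 8 from 8617235 to 8661242 on the minus strand. It read 7.25, 7.54, 6.89 and 5.87 in Flattop replicates 1 to 4. In the Lgr5-high arrays it ran from 3.99 through a median of 4.80 to 5.52. All 4 Flattop arrays were above all 6 Lgr5-high arrays, although Flattop replicate 4 lay only a little above the highest of them, Lgr5-high replicate 3.

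Efnb2 averaged 6.89 ± 0.73 (SD, n = 4) in the Flattop arrays against 4.81 ± 0.52 (SD, n = 6), a difference of 2.08 on the log2 scale (SE 0.35, 95% interval 1.31 to 2.85, limma adjusted p = 0.0198). The exact two-sided permutation test over arrays gave p = 0.00476, unadjusted, the smallest that the 210 splits allow. Only 3 of the 6 Lgr5-high values exceeded the median of their own array, so the size of the fold is uncertain without detection calls. The adjusted p rose above 0.05 when Flattop replicate 1 (0.0567), Flattop replicate 2 (0.0704) or Lgr5-high replicate 4 (0.0542) was left out, with differences of 1.96, 1.86 and 2.04. Within title numbers 1 to 8 the difference was 2.21 (limma adjusted p = 0.0418), and within 38 to 46 it was 1.95 and missed the threshold (adjusted p = 0.190).

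Efnb1, on the X chromosome from 99136061 to 99149022, encodes ephrin-B1, the other B-type ligand of the upper crypt. Its values were 7.27, 7.35, 6.66 and 6.23 in Flattop replicates 1 to 4, and from 5.85 through a median of 6.14 to 6.74 in the Lgr5-high arrays. Flattop replicates 1 and 2 stood above every Lgr5-high array, and replicates 3 and 4 lay within their range.

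The Efnb1 means were 6.88 ± 0.53 (SD, n = 4) and 6.19 ± 0.32 (SD, n = 6), and the difference of 0.68 (SE 0.25, 95% interval 0.14 to 1.23) did not pass limma over all genes (adjusted p = 0.371). The exact permutation test gave an unadjusted p of 0.0476. Within title numbers 1 to 8 the difference was 1.06 and within 38 to 46 it was 0.30, and the limma interaction test of that gap gave an unadjusted p of 0.0810 (adjusted p = 0.694). Xist, the RNA of the inactive X chromosome, was at a high level on 3 Flattop arrays and on 2 Lgr5-high arrays, so both sexes are present. A fit with sex as a block, added after seeing the data because Efnb1 is X-linked, gave 0.74 (limma adjusted p = 0.446).

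Efna1, the gene of the lipid-anchored ligand ephrin-A1, lies on chromosome 3 from 89271730 to 89280951. It read 6.25, 7.26, 5.59 and 6.48 in Flattop replicates 1 to 4 and from 5.27 through a median of 5.89 to 7.08 in the Lgr5-high arrays. Except for Flattop replicate 2 every Flattop value fell inside the Lgr5-high range, and Lgr5-high replicate 1 was second only to that array. The difference was 0.44 (SE 0.37, 95% interval -0.37 to 1.26, limma adjusted p = 0.714), and the spread within each group, SD 0.69 and 0.61, exceeded it.

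Ephb3, on chromosome 16 from 21204620 to 21223309, encodes the receptor known for placing Paneth cells at the crypt base. It read 7.25, 6.57, 6.20 and 6.45 in Flattop replicates 1 to 4 and from 6.10 through a median of 6.74 to 7.37 in the Lgr5-high arrays. All Flattop values lay inside the Lgr5-high range. With means of 6.62 ± 0.45 (SD, n = 4) and 6.71 ± 0.46 (SD, n = 6), the difference was -0.09 (SE 0.27, limma adjusted p = 0.926). Its 95% interval ran from -0.69 to 0.51, so the data do not show that the level was the same. The sign turned within title numbers 1 to 8 (0.17, and -0.35 within 38 to 46) and without Lgr5-high replicate 3 (0.043) or Flattop replicate 3 (0.051). Paneth cell markers differed far more in the same arrays, with 5 of 9 measured genes higher in limma over all genes. Lyz1, the Paneth lysozyme, was at 13.31 ± 0.14 (SD, n = 4) against 9.74 ± 1.52 (SD, n = 6), although its probes may also detect close relatives.

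Ephb4, the gene of the main receptor for ephrin-B2, lies on chromosome 5 from 137350109 to 137374522. It read 7.50, 7.75, 6.95 and 6.77 in Flattop replicates 1 to 4. In the Lgr5-high arrays it ran from 7.40 through a median of 8.34 to 8.84. The groups overlapped through Lgr5-high replicate 5 alone, the other 5 Lgr5-high arrays being above every Flattop array.

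The Ephb4 means were 7.24 ± 0.46 (SD, n = 4) and 8.27 ± 0.55 (SD, n = 6). The difference of -1.03 (SE 0.30, 95% interval -1.70 to -0.36) did not pass over all genes (limma adjusted p = 0.231), and the exact permutation test gave an unadjusted p of 0.0238. It was -0.90 within title numbers 1 to 8 and -1.17 within 38 to 46.

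Epha2, the receptor gene for ephrin-A1, lies on chromosome 4 from 141301221 to 141329384 and was dim throughout. Its values were 4.28, 4.21, 4.37 and 4.01 in Flattop replicates 1 to 4 and from 4.41 through a median of 4.52 to 4.58 in the Lgr5-high arrays. Every one of these 10 values lay below the median of its own array, so they may hold little signal above background. The groups did not overlap, but the difference was -0.28 (SE 0.11, limma adjusted p = 0.410), with an unadjusted exact permutation p of 0.00476.

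**Figure D2:**
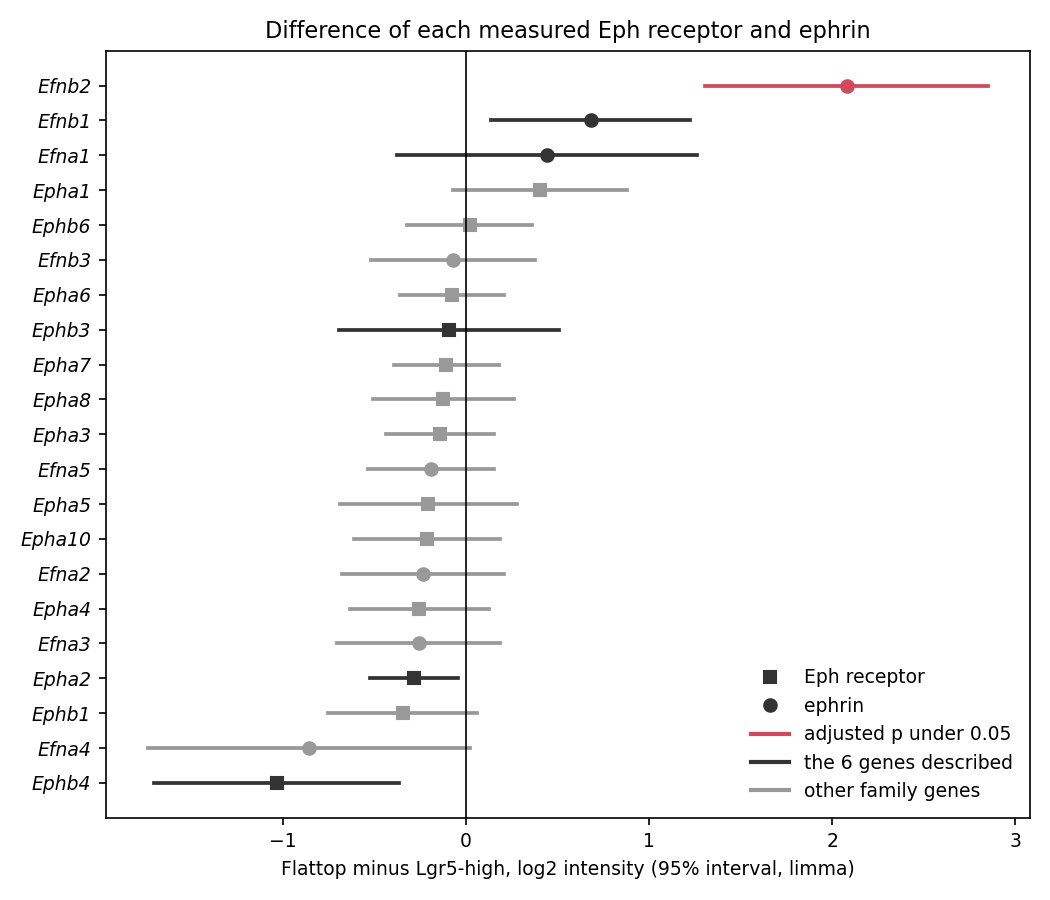
Difference in log2 intensity between Flattop and Lgr5-high arrays (horizontal axis) for each of the 21 measured Eph receptors (squares) and ephrins (circles), with 95% intervals from limma. Efnb2, at 2.08, is the only gene past an adjusted p of 0.05, and Ephb4, at -1.03, lies at the other end.

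Ligand and receptor were also set against each other within each array. Values of different probe sets cannot be compared as levels, so only the change of their difference between arrays is meaningful. Efnb2 minus Ephb4 was -0.25, -0.21, -0.05 and -0.90 in Flattop replicates 1 to 4 and lay between -4.30 and -2.74 in the Lgr5-high arrays. The balance of this ligand and receptor pair was thus shifted toward Efnb2 in all 4 Flattop arrays, by 3.11 between the group means. This shift combines the difference of Efnb2 (2.08) with that of Ephb4 (-1.03), which did not pass (limma adjusted p = 0.231). It is not a separate result. Efnb2 minus Ephb3 shifted by 2.17, from between -3.02 and -1.17 to between -0.58 and 0.96, without overlap. As Ephb3 itself differed by only -0.09, this shift is nearly that of Efnb2 alone (2.08) and not a separate result. For Efnb1 minus Ephb3 (-1.40 to 0.64 in Lgr5-high, -0.23 to 0.78 in Flattop) and Efna1 minus Epha2 (0.74 to 2.56 and 1.22 to 3.06) the groups overlapped. These differences between members are given without a test.

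Among the 15 pairs of members, Efnb1 and Efnb2 ran most alike over the 10 arrays by Pearson correlation (r = 0.81, and 0.62 after the group means were removed), followed by Ephb4 and Epha2 (0.73, and 0.32). By Spearman rank correlation the order differed, with Ephb4 and Epha2 highest (0.79) and Efnb1 and Efnb2 at 0.61. Efnb2 and Ephb4 had r = -0.48 over all arrays but 0.54 after removal of the group means. The latter is 1 value pooled over both groups and does not show the relation within each group. Arrays share labelling, normalisation and group, and these values describe 10 arrays only.

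**Figure D3:**
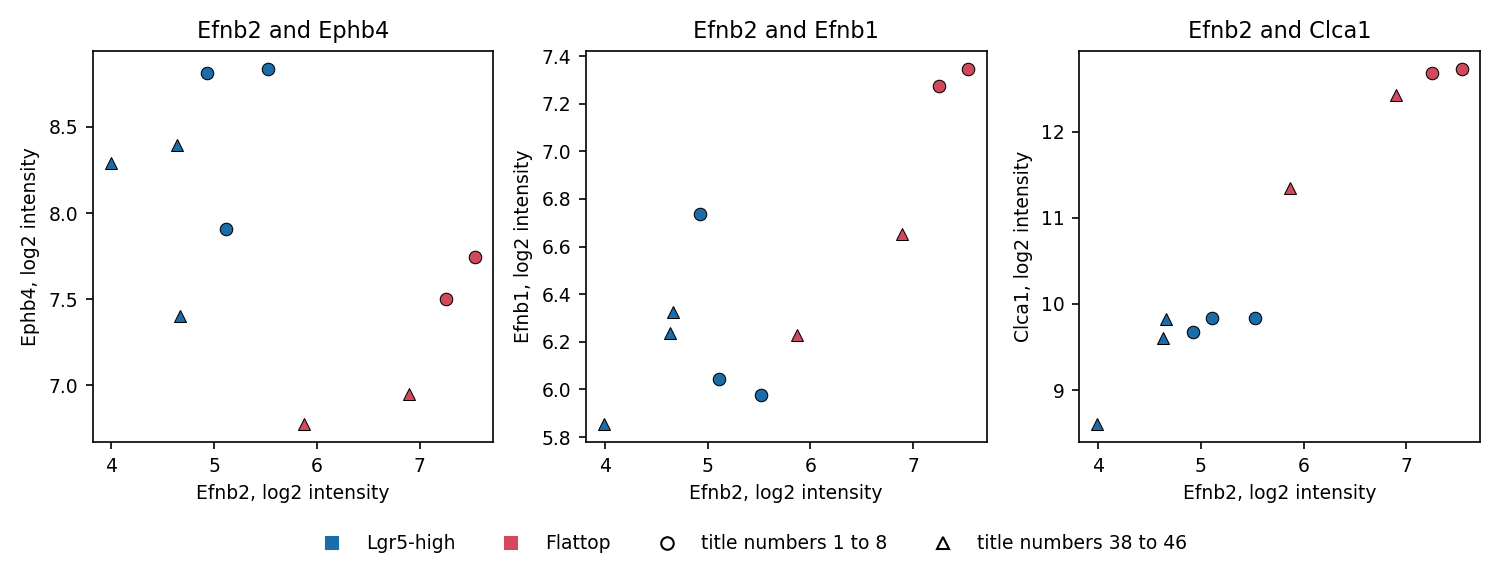
Log2 intensity of Ephb4, Efnb1 and the goblet cell gene Clca1 (vertical axes) against Efnb2 (horizontal axis), 1 point per array, coloured by group and shaped by title number range. Flattop arrays lie to the right in each panel, and their Ephb4 values are mostly lower while their Clca1 values are higher.

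The genes whose pattern was most like that of each member were sought by Pearson correlation over the 10 arrays among 11090 genes of above-median mean. Closest to Efnb2 were Clca1, a goblet cell secretory protein (r = 0.98, and 0.91 after the group means were removed), and the lysosomal mannosidase Man2b2 (r = 0.95, and 0.81). Clca1 read 12.68, 12.73, 12.43 and 11.35 in Flattop replicates 1 to 4, the same order as Efnb2, and 8.60 to 9.83 in the Lgr5-high arrays. Lgr5-high replicate 6 was the lowest array for both genes. Efnb1 was most like Nit1 (0.96) and Nsd3 (0.93), Efna1 like Atp6v1c1 (0.96) and Kat6b (0.95), Ephb3 like Ppp1r37 (0.93) and Bcas2 (0.93), Ephb4 like Ppp1r9a (0.96) and Mllt11 (0.92), and Epha2 like Clca3a2 (0.92) and Klf16 (0.92). With so many genes searched over so few arrays, high values arise readily, and none is given a p.

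None of the other 15 measured Eph receptors and ephrins passed limma over all genes, and 0 of them had an unadjusted p under 0.05. Differences were negative in 13 and positive in 2, with a median of -0.13 in the 10 receptors and -0.23 in the 5 ephrins. The median over all genes was also negative, at -0.06, and the share of negative differences over all genes was not computed. The tally of signs did not hold in both title ranges: 14 of the 15 were negative within title numbers 1 to 8 and 6 within 38 to 46. The receptor median was -0.26 and 0.035 in these ranges, the ephrin median -0.47 and -0.10. Flattop replicates 1 and 2, both of title numbers 1 to 8, had the lowest array medians (4.56 and 4.61), and the part of this in the tally was not tested. Among receptors, Epha1 differed most upward (0.40, adjusted p = 0.594), with Flattop values of 5.74 to 6.83 against 5.52 to 6.10. Ephb1 was at -0.34 (adjusted p = 0.596), Epha4 at -0.25 (adjusted p = 0.665) and Epha10 at -0.21 (adjusted p = 0.716). Efna4, a further A-type ligand, was at -0.86 (adjusted p = 0.525). Its Lgr5-high arrays spread from 5.22 to 7.21, whereas its Flattop arrays lay between 4.97 and 5.43. Efna3, Efna5 and Efna2 differed by -0.26, -0.19 and -0.23. The B-type ligand Efnb3 differed by -0.07 (adjusted p = 0.921) over all arrays, by -0.53 within title numbers 1 to 8 and by 0.39 within 38 to 46 (limma interaction, unadjusted p = 0.00504, adjusted p = 0.488). Over all arrays Efnb2 was the 1 of the 3 ephrin-B genes to pass.

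Of 34 measured genes of a list of Eph and ephrin signalling, 1 rose and 0 fell in limma over all genes, with a median of 0.05. Of all genes 0.902% passed as higher and 0.0135% as lower. Most of the list are adaptors, kinases and other proteins that act with or downstream of Eph receptors. At an unadjusted p under 0.05, 2 were higher and 1 was lower, close to the shares of all genes (5.98% and 3.8%). Stat3, a transcription factor that binds the ephrin-B tail among many other roles, rose by 2.16 (SE 0.29, adjusted p = 0.00451), reading 7.67, 7.80, 8.38 and 8.22 in Flattop replicates 1 to 4 and 4.85 to 6.36 in the Lgr5-high arrays. The Src family kinase Fyn, which is also abundant in T cells, was at 1.43 (adjusted p = 0.197). It read 4.92, 5.32, 7.18 and 6.83 in Flattop replicates 1 to 4, highest in replicates 3 and 4, where the lymphocyte list means were also highest (8.31, 8.81, 10.54 and 9.93). Stat3 likewise followed the order of these list means over the Flattop arrays, whereas Efnb2 was lowest in replicates 3 and 4. The part of lymphocytes in the Stat3 and Fyn values was not tested. The Fyn relative Yes1 was at -0.95 (adjusted p = 0.500) and the actin regulator Limk1 at 0.24 (adjusted p = 0.563). The list also held Fap, which has no clear tie to this pathway, at -0.27, and without it 1 of 33 genes rose and the median was 0.06.

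Canonical Wnt targets, the class to which Ephb3 is counted, had 18 negative and 2 positive differences among 20 measured genes. Their median was -0.16, where that of all genes was -0.06. None of these targets passed limma over all genes (at an unadjusted p under 0.05, 0 higher and 2 lower). Smallest in p were the transcription factor Sp5 (-0.74, adjusted p = 0.404), the feedback inhibitor Axin2 (-0.63, adjusted p = 0.481), Lgr5 (-1.10) and the adhesion receptor Cd44 (-0.99, adjusted p = 0.563). All 14 stem cell markers had negative differences (median -0.61), with 0 past limma's threshold over all genes and 7 lower at an unadjusted p under 0.05, led by Gkn3 (-1.17, adjusted p = 0.114), Rgmb (-1.06, adjusted p = 0.124) and Slc12a2 (-0.96, adjusted p = 0.231). The stem cell median was -0.28 within title numbers 1 to 8 and -0.94 within 38 to 46. The stem cell list mean of Flattop replicate 2, at 8.53, lay inside the Lgr5-high range of 8.30 to 8.96. Among Wnt targets Ephb3, at -0.09, therefore stood nearer to 0 than the median.

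Markers of several cell types were also higher in the Flattop arrays. Goblet cell list means were 11.98, 11.90, 11.63 and 11.49 in Flattop replicates 1 to 4, where Efnb2 read 7.25, 7.54, 6.89 and 5.87. They ran from 9.32 to 10.45 in the Lgr5-high arrays, lowest in replicate 3 (9.32), where Efnb2 was highest (5.52). In limma over all genes 5 of 8 goblet genes were higher, among them Fcgbp (2.37), Clca1 (2.74) and Muc2 (1.51). Enterocyte list means were 9.22, 9.44, 8.86 and 10.12 in the same Flattop arrays and 6.67 to 7.56 in Lgr5-high arrays, with 5 of 12 genes higher, among them Apoa1 (2.70), Alpi (4.69), Apoa4 (3.29) and Sis (4.72, which at 9.72 to 11.09 lay far above its Lgr5-high range of 4.74 to 6.95 but whose Lgr5-high mean of 5.55 was not far above the array medians). Paneth list means ran from 11.93 to 12.68 against 7.45 to 9.76, led by Itln1 (3.04), Defa26 (3.19, uncertain as to the copy measured) and Clps (3.72). Enteroendocrine list means ran from 8.72 to 9.37 against 7.19 to 8.03, with 5 of 8 genes higher, led by Gip (2.89), Sst (3.40) and Chga (1.36). At an unadjusted p under 0.05, 6 of these genes were higher and 1 was lower, Neurog3 (-1.66, limma adjusted p = 0.501). Neurod1 was at -0.19. Lymphocyte genes were led by Ccl5 (6.99), Cd3g (6.43) and Gzma (5.91). The sizes for Cd3g and Gzma are uncertain, since their Lgr5-high means of 3.67 and 4.36 lay below the array medians. Cd3e, which defines T cells, ran from 8.64 to 11.63 against 4.14 to 5.21. Efnb2 was lowest in Flattop replicates 3 and 4, the arrays with the highest lymphocyte means, which are also the Flattop arrays of title numbers 38 to 46. In the Lgr5-high arrays, with lymphocyte list means of 4.41 to 4.85, Efnb2 was also lower in that range. It read 4.63, 4.665 and 3.99 there against 5.11, 4.93 and 5.52 within title numbers 1 to 8. Title range and lymphocyte level coincide in the Flattop arrays and cannot be told apart there, and the part of either in the Efnb2 values was not tested.

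Endothelial markers, looked at because Efnb2 and Ephb4 are the pair known from arteries and veins, had list means of 4.03 to 4.39 in Flattop and 4.36 to 4.65 in Lgr5-high arrays, below the array medians. Of 10 genes 9 had negative differences (median -0.24, where that of all genes was -0.06) and 0 passed limma over all genes (at an unadjusted p under 0.05, 0 higher and 2 lower). The endothelial median was -0.37 within title numbers 1 to 8 and -0.07 within 38 to 46. Esam, Kdr and Tie1 were at -0.51, -0.37 and -0.39. The defining genes Pecam1 and Cdh5 averaged 4.54 ± 0.17 and 4.45 ± 0.31 (SD, n = 4) in Flattop, against 4.41 ± 0.35 and 4.75 ± 0.31 (SD, n = 6). Stromal list means were 4.47 to 4.79 and 4.38 to 4.72, with 0 of 8 genes past limma's threshold (at an unadjusted p under 0.05, 1 higher and 0 lower, median -0.09, mean 0.06). The intermediate filament gene Vim was at 0.96 (adjusted p = 0.238), Lum at -0.18, Col1a2 at -0.18 and the collagen gene Col1a1 at -0.11. Dissociation response genes had a median of 0.30, and 0 of 14 passed limma over all genes (at an unadjusted p under 0.05, 1 higher and 0 lower, Junb at 1.12, followed by Dusp1 at 0.70 and Ier2 at -0.63). Their median was -0.44 within title numbers 1 to 8 and 0.85 within 38 to 46, beside Efnb2 differences of 2.21 and 1.95, and the part of these genes in the result for Efnb2 was not tested.

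**Figure D4:**
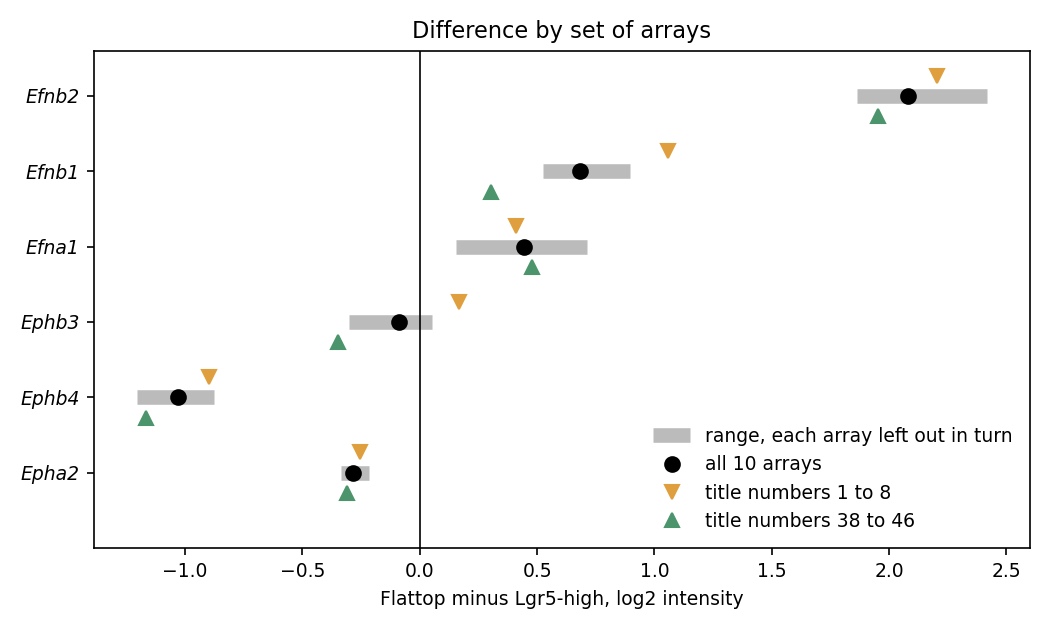
Difference in log2 intensity between Flattop and Lgr5-high arrays (horizontal axis) for each of the 6 genes over all 10 arrays, within each title number range, and as the range when each array is left out in turn (grey bars). Efnb2 stays between 1.86 and 2.42 with any 1 array left out and Ephb4 between -1.21 and -0.88, while Ephb3 crosses 0.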

How the data were processed

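RNA of sorted mouse intestinal cells was measured on 10 MoGene 2.0 ST arrays. The authors deposited log2 intensities, 1 per probe set and array, computed by RMA with oligo 1.38.0, per the submitters' processing notes. The sources used here give no other step. Of 41345 probe sets, 23521 had 1 gene symbol, 1814 several and 16010 were not listed. For each of 22180 genes the probe set with the highest mean was kept. Groups were compared with limma 3.58.1 in R 4.3.3 (lmFit, eBayes, Flattop minus Lgr5-high, two-sided), adjusted by Benjamini-Hochberg over all genes at 0.05, after a test on simulated data. Exact permutation tests over arrays were alternatives. Precision is limited by how few arrays there are.

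The members and the gene lists were chosen with earlier results of these data known. Named genes were the members, up to 4 genes per Eph, signalling or Wnt list and up to 3 per marker list by smallest p, defining markers, and the 2 genes most correlated with each member. Efnb3, Fap, Neurog3, Neurod1 and Ascl2 were named after their values were seen. Stem, lymphocyte, enterocyte, Paneth, goblet, enteroendocrine, endothelial, stromal and dissociation lists were summarised by counts and medians. Promoter sequences of all 6 members were found in RefSeq's GRCm38.p6 table. Alternatives were another normalisation, centring, a filter at the 40th percentile, another variance prior, array weights, blocks, title ranges, left-out arrays, probe set rules and a threshold of 0.1. A block for sex, from Xist above 7, was added later. Plots used matplotlib 3.10.9.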

Additional observations from a re-analysis of the deposited data

Results flagged for a closer look

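Of 42 groups of values (21 Eph and ephrin genes in each group of arrays), 3 held an array set apart from the rest by a gap that is large against the group's range. Chance sets apart about 1 in 20 groups. None was a group of one of the 6 genes described. Epha8 read 5.74 in Lgr5-high replicate 2, where the next highest array read 5.21. Efna3 read 5.54 in Lgr5-high replicate 4, next to 5.33. Efna4 read 5.43 in Flattop replicate 2, the other 3 replicates being between 4.97 and 5.02.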

How the results depend on the processing

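Efnb2 was higher in Flattop in all 22 alternatives with a limma fit (1.84 to 2.42) and past the threshold in 17. With the replicate number as a block, over arrays with numbers 1 to 4, its difference was 1.84 (adjusted p = 0.117), so 0 members passed, and 57 of all genes passed, 57 of them higher. The labels do not say whether these numbers pair the arrays. Deviations of same-numbered arrays correlated at 0.30, -0.21, -0.01 and 0.03, and so few values cannot settle it. Within title numbers 38 to 46 Efnb2 was at 1.95 (adjusted p = 0.190), with 0 members and 85 genes past the threshold, and 77 genes passed within 1 to 8. At a threshold of 0.1, 311 genes passed, 292 higher. With 1 array left out, 0 to 1 members and 123 to 215 genes passed, and the members' median ran from 0.040 to 0.38. That median was -0.004 within title numbers 38 to 46 and -0.025 with sex as a block. Ephb3 turned to 0.17 within title numbers 1 to 8 and ran from -0.30 to 0.051 with 1 array left out (0.043 without Lgr5-high replicate 3 and 0.051 without Flattop replicate 3). The exact permutation test, unadjusted, passed for Efnb1 (0.68), Epha2 (-0.28) and Ephb4 (-1.03) at p of 0.0476, 0.00476 and 0.0238. Efnb2 differences with 1 array left out ran from 1.86 to 2.42, Efnb1 from 0.52 to 0.90, Efna1 from 0.16 to 0.71, Ephb4 from -1.21 to -0.88 and Epha2 from -0.33 to -0.21. Epha2 was removed by the filter on dim genes and has no value there. The causes of these shifts were not tested. Values near or below the array medians limit what can be said of fold sizes. In 7 of the 21 Eph and ephrin genes, Epha2 among them, a group mean lay below the highest array median, and so did those of several marker genes such as Cd3g and Lum. Efnb2 was near the medians in Lgr5-high arrays.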
